A study of Homo sapiens with 6 samples.

Results

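Nuclear receptors are transcription factors of a single gene family, and the transcripts of 44 such genes were followed in HepG2 cells after knockdown of DGUOK. The genes were chosen by symbol from the deposited count table, where 43 of the 44 symbols matched a row among 34036 genes. NR2E3 was not analysed here. The HepG2 line originated in a human hepatocellular carcinoma. DGUOK encodes deoxyguanosine kinase, the mitochondrial enzyme that phosphorylates purine deoxynucleosides. Cells of the siDGk group received a pool of siRNAs to DGUOK and cells of the siCON group a non-targeting control siRNA, in both cases by Lipofectamine RNAiMAX at 6 pmol of siRNA for each well of a 24-well plate. RNA, labelled as poly(A), was sequenced from 3 cultures of each group, stated to be independent biological replicates and collected 48 h after transfection. The single contrast asks which transcripts differ once DGUOK is depleted. All 6 libraries come from the same line, so differences between individuals play no part, and a call speaks for this line alone.

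Library depth, the sum of counts over genes, was 19065684 in siCON replicate 1, 18915508 in siCON replicate 2 and 10527216 in siCON replicate 3. In siDGk cells it was 18613138 in replicate 1, 15978314 in replicate 2 and 21334876 in replicate 3, so siCON replicate 3 was the shallowest and its values carry the largest counting error. Values are given as CPM, counts scaled to a library's normalized total, and are listed in the order of replicates 1, 2 and 3. DGUOK itself had 1019, 997 and 506 counts across the siCON cultures and 168, 171 and 146 counts across the siDGk cultures. Every siDGk library lay below every siCON library and the log2 fold change was −2.57 with a standard error of 0.19 (edgeR's quasi-likelihood test, Benjamini-Hochberg adjusted p = 1.64e-08). Replicates 1 and 2 of siDGk stood apart from the rest. In siDGk replicate 1 a count was found for 21057 genes, against 16205 to 17583 in the other libraries. In siDGk replicate 2 the endothelial transcript VWF reached 31.4 CPM, against at most 1.40 CPM elsewhere.

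Most nuclear receptors share a zinc finger domain that binds DNA and a domain that binds small lipophilic ligands, such as steroids, thyroid hormone, retinoids, bile acids, fatty acids and oxysterols. Many bind their sites as heterodimers with a retinoid X receptor, and with or without ligand they recruit coactivators or corepressors to their target genes. In hepatocytes the family sets much of the program for bile acid, lipid, glucose and drug metabolism, with HNF4A as a core factor of hepatocyte identity. Several members respond to fed or fasted states, the circadian clock or acute stimuli.

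Of the 43 genes in the table, 32 passed the filter on low counts and were tested. They were compared between groups with edgeR's quasi-likelihood test over 14476 genes, and a gene was called where the Benjamini-Hochberg adjusted p was under 0.05 and the log2 fold change exceeded 0.5 in size. In siDGk cells NR1I2, PPARD, ESRRA and NR4A2 were called higher, and NR1H4, THRB, HNF4A and NR2F2 were called lower. These 8 of 32 are 25% of the receptors tested, beside 14.1% of all genes tested. The 4 higher and the 4 lower are 12.5% each, beside 7.42% and 6.68% of all genes. NR4A2 passed the filter only through the group in which it was high, so these counts describe the list and support nothing about it; without NR4A2 they are 7 of 31, 3 higher and 4 lower. At the adjusted p alone the count was 10 of 32 or 31.2%, beside 19.7% of all genes, with RXRA and NR0B2 as the additions. The siDGk libraries did not overlap the siCON libraries for 13 receptors, 5 above and 8 below, or 40.6% beside 36.0% of all genes. The median log2 fold change of the 32 was −0.05, beside 0.02 over all genes, and the median size of the change was 0.372 beside 0.330. Calls thus went in both directions, to members with different ligands and roles. RNA came from bulk cultures, in which fewer cells of a type and less RNA per cell cannot be told apart.

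**Figure D1:**
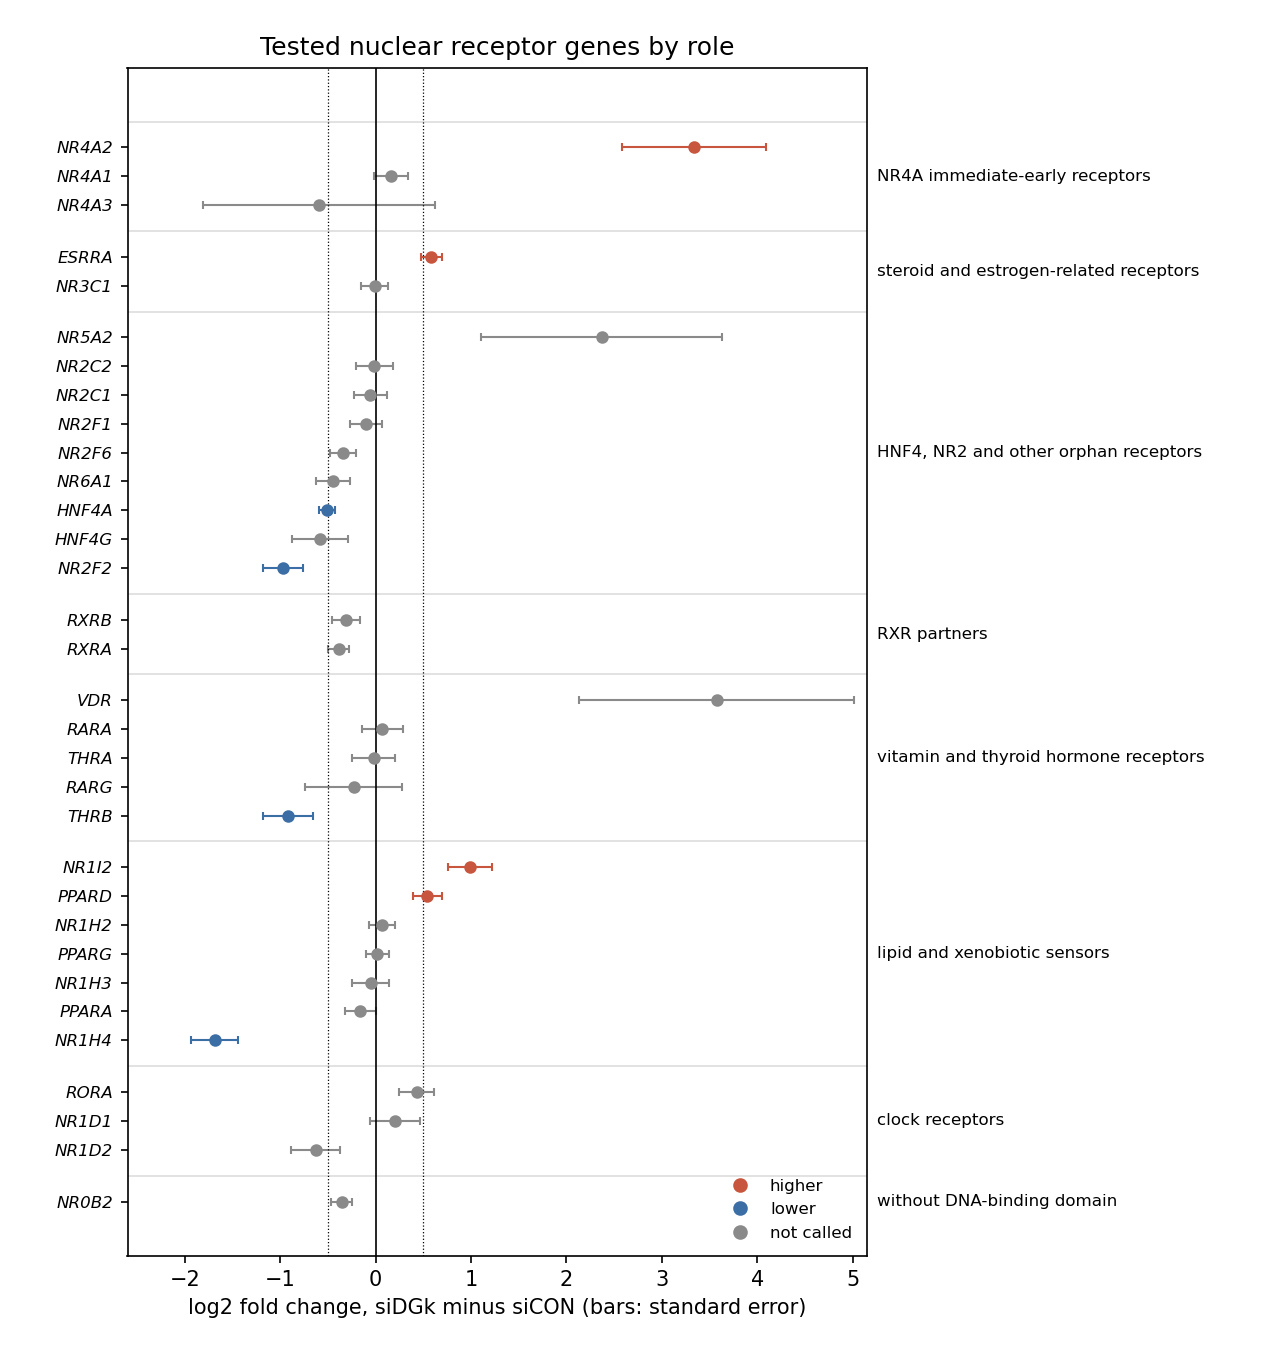
The log2 fold change of each of the 32 tested nuclear receptor genes (horizontal axis, siDGk minus siCON, bars showing the standard error) is drawn by role class, with dotted lines at −0.5 and 0.5. The 4 red points were called higher and the 4 blue points lower; the widest bars belong to VDR, NR5A2 and NR4A3, which had few counts.

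The 11 receptors that were not tested had at most 36 counts in any library. ESR2, RXRG, ESRRG and RORB had no count in any of the 6 libraries. The others were NR0B1, NR1I3, RARB, ESR1, ESRRB, NR3C2 and PGR, which include the xenobiotic receptor CAR (NR1I3) and the classical receptors for estrogen, progesterone and mineralocorticoids. Filtering shaped the list at its lower end. Of the 32 tested receptors, 28 reached the required level in all 6 libraries. NR4A2 reached it in 3 siDGk libraries and in 0 siCON libraries, so it entered the test through the group in which it was high. NR5A2 and VDR reached it in 1 siCON library and in 3 and 2 siDGk libraries, and NR4A3 in 3 siCON libraries and 1 siDGk library.

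Divided by exon length, the levels of the tested receptors in siCON cells spanned a wide range. NR0B2, the small heterodimer partner SHP, was at the top with 88.3 ± 10.53 CPM per kilobase (SD, n = 3). NR2F6 followed with 53.7 ± 5.43 CPM per kilobase, also clear of its neighbours by more than their spread. ESRRA and HNF4A came next with 26.0 ± 3.15 and 24.2 ± 1.42 CPM per kilobase, a difference within their spread. RXRB, NR2F1, PPARD, NR1H2, RXRA and NR1H4 lay between 6.81 and 16.2 CPM per kilobase. From NR1D1 down to THRA, 14 receptors lay between 2.73 and 5.55 CPM per kilobase, and each differed from the next by less than their spread. At the bottom NR4A3, NR4A2, VDR and NR5A2 had at most 0.175 CPM per kilobase. In siDGk cells ESRRA reached 38.9 ± 2.44 and HNF4A 17.0 ± 0.930 CPM per kilobase, so that a pair at like levels in siCON cells was far apart. The ratio of ESRRA to HNF4A per kilobase was 1.07 ± 0.0980 in siCON and 2.30 ± 0.271 in siDGk libraries (SD, n = 3). Summed over the 43 genes, the level was 314 ± 7.52 CPM per kilobase in siCON and 283 ± 10.3 in siDGk libraries.

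**Figure D2:**
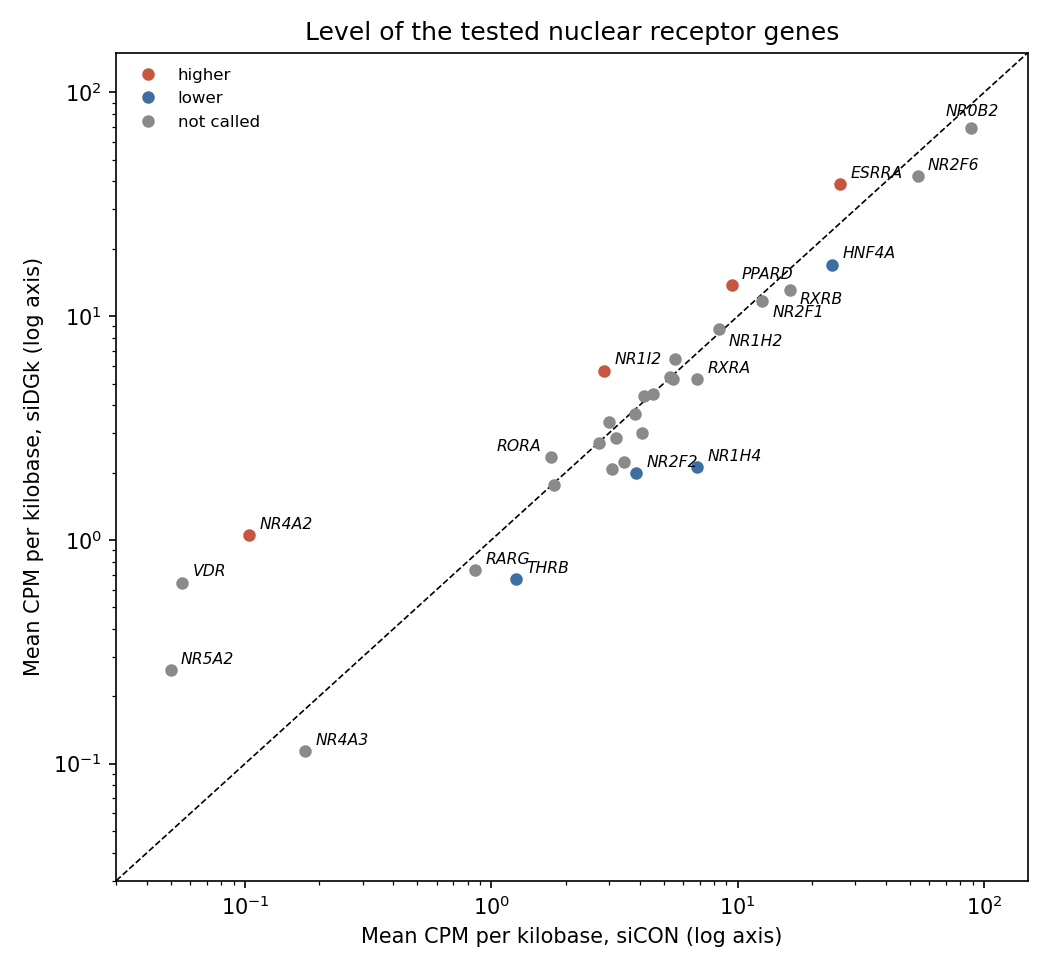
Mean level of each tested nuclear receptor gene in siCON (horizontal) and siDGk (vertical) libraries, in CPM per kilobase of exon on log axes, 3 libraries a group; the dashed line marks equal levels. ESRRA, PPARD, NR1I2 and NR4A2 (red) lie above the line, and HNF4A, NR2F2, NR1H4 and THRB (blue) below it.

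The receptors that sense bile acids, drugs and lipids held an opposed pair, NR1H4 lower and NR1I2 higher. NR1H4 encodes FXR, the bile acid receptor, and lies at chr12:100473708-100564414 of GRCh38. Its level was 33.1, 20.3 and 20.8 CPM across the siCON cultures and 7.997, 7.02 and 8.01 CPM across the siDGk cultures. All siDGk values were low and close together, the siCON values were higher with replicate 1 above the other two, and the groups did not overlap. The log2 fold change was −1.69 with a standard error of 0.24 (edgeR's test, adjusted p = 5.19e-05), the largest fall among the receptors. Without siCON replicate 1 it was −1.42, and the call held in each of the 6 fits that leave out a library.

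NR1I2 encodes PXR, the pregnane X receptor that binds drugs and other foreign compounds, and lies at chr3:119780484-119818487. It was measured at 18.3, 15.6 and 12.2 CPM across the siCON cultures and 22.6, 27.7 and 41.8 CPM across the siDGk cultures. Every siDGk value was above every siCON value, with siDGk replicate 3 the highest. Here edgeR estimated a log2 fold change of 0.99 with a standard error of 0.23 (quasi-likelihood test, adjusted p = 0.00460), and 0.69 without siDGk replicate 3, still called. Per kilobase, NR1I2 stood at 0.429 ± 0.0780 times the level of NR1H4 in siCON libraries and at 2.70 ± 0.805 times in siDGk libraries (SD, n = 3). The order of the bile acid receptor and the xenobiotic receptor was thus reversed in all 3 siDGk libraries.

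PPARD encodes PPAR delta, a fatty acid receptor present in most tissues, at chr6:35342558-35428191. The level was 43.5, 46.6 and 36.0 CPM across the siCON cultures and 56.8, 53.0 and 74.1 CPM across the siDGk cultures. The siDGk libraries lay above the siCON libraries, although the gap between the highest siCON and the lowest siDGk value was small. This gave a log2 fold change of 0.54 with a standard error of 0.15 (edgeR's test, adjusted p = 0.0151). The call was lost without siCON replicate 3 (0.45), without siDGk replicate 3 (0.37) and with DESeq2's shrunken fold change (0.41). The other PPAR genes were not called. PPARA, which drives fatty acid oxidation in fasted liver, had a log2 fold change of −0.16 (−0.28 to −0.01 with a library left out) and PPARG, the adipogenic receptor, 0.02. The oxysterol receptors NR1H3 (LXR alpha) and NR1H2 (LXR beta) had log2 fold changes of −0.05 and 0.07, the latter 0.02 to 0.12 with a library left out. For these 4 receptors the libraries of the groups overlapped, and their standard errors were 0.19 or less.

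Sequence before the annotated starts was searched for the receptors as a family, since shared control elements are often sought there. Called and uncalled receptors were not compared, and a gene with several starts counts with several windows. RefSeq promoter windows on GRCh38.p14 were available for 39 of the 44 genes, 93 windows in all. VDR, NR2F6, NR4A2, HNF4G and NR0B2 had no entry. In the 250 bases before each start, 4 motifs were searched on both strands. AGGTCA, the core of most nuclear receptor sites, was in 15.1% of the receptor windows and in 12.1% of all 35116 windows. Of the called receptors, NR1H4 alone had it. AGGTCANAGGTCA, a direct repeat of that core, was in 0.0171% of all windows and TCAAGGTCA, the element of estrogen-related receptors, in 0.319%, and neither was in a receptor window. Both contain AGGTCA. TGACGTCA, the cAMP response element, was in 1.65% of all windows and in 1 receptor window, and it shares no full core with the others. The windows of NR1H4, PPARD and HNF4A are shown because these receptors were called and the 250 bases of their most upstream window hold no annotated exon. Capitals mark AGGTCA or its reverse complement, and all 3 genes lie on the plus strand.
NR1H4, chr12:100503110-100503359: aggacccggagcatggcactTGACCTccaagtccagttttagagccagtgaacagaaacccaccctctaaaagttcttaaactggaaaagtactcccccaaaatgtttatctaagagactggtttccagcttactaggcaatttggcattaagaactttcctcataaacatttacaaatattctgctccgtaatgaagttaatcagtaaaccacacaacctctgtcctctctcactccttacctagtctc
PPARD, chr6:35342308-35342557: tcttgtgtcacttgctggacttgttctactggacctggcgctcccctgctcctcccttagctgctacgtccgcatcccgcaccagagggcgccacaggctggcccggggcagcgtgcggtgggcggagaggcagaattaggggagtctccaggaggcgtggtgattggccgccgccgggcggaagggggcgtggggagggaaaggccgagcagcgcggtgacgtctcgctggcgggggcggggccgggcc
HNF4A, chr20:44355449-44355698: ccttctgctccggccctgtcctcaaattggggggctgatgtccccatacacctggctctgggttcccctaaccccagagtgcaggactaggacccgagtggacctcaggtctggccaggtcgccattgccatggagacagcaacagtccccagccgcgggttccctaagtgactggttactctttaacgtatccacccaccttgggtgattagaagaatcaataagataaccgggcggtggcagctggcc
The NR1H4 stretch lies within the annotated gene, with 42.0% GC and 2 CpG dinucleotides. That of PPARD ends where the annotated gene begins and has 70.8% GC and 23 CpG. For HNF4A the stretch precedes the most upstream annotated start and has 58.4% GC and 8 CpG. A match is a description of these letters and says nothing on binding, and counts per gene do not tell which start was used.

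**Figure D3:**
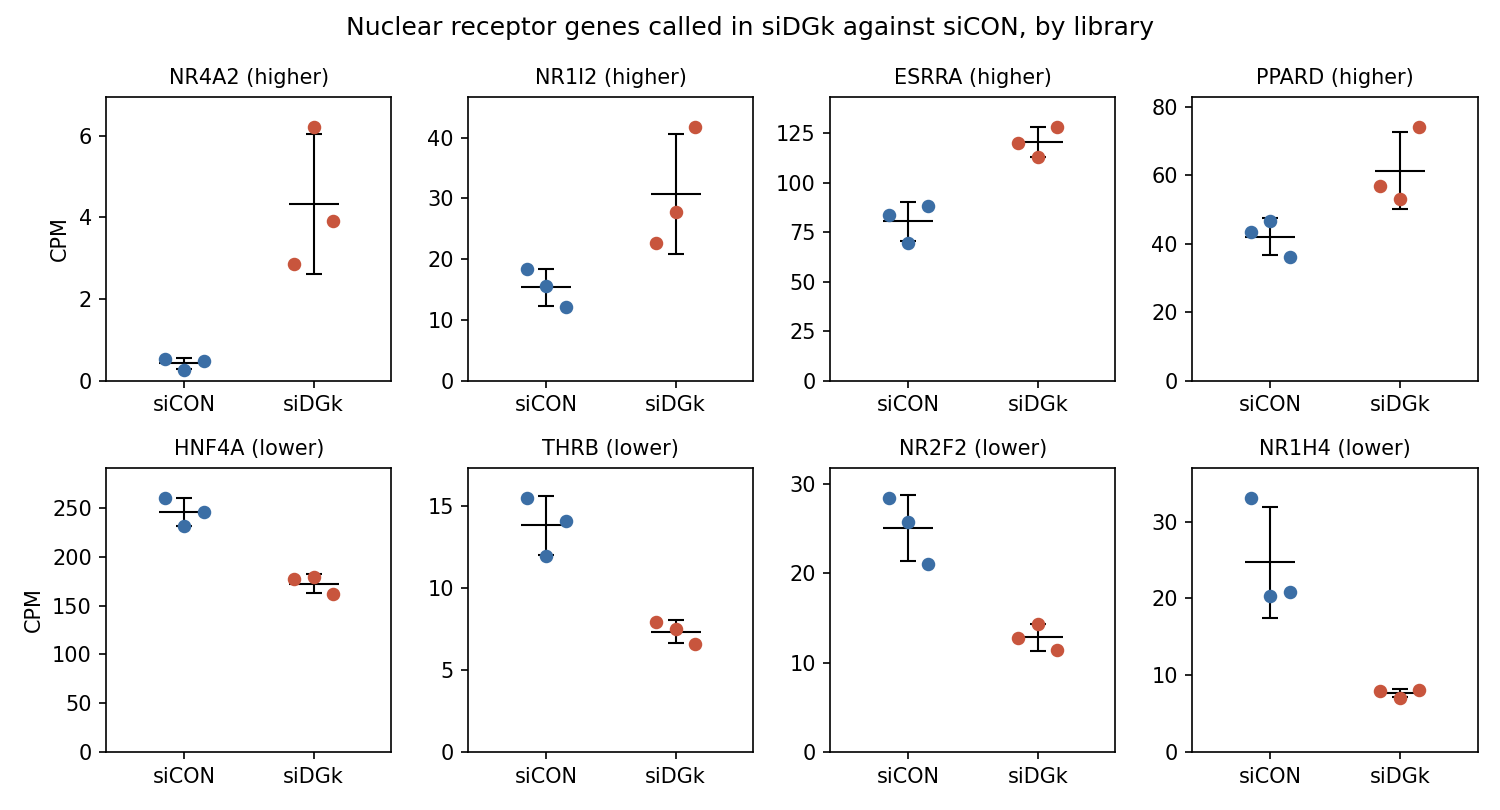
Level of the 8 called nuclear receptor genes in each library (points, CPM, linear axes from 0), with the mean and SD of 3 siCON (blue) and 3 siDGk (red) libraries as black bars. In each panel the groups do not overlap; NR1H4 spans 7.02 to 8.01 CPM in siDGk and 20.3 to 33.1 CPM in siCON libraries.

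Lists of known target genes were read from the same fit, whatever their receptor did, beside 7.42% of all genes called higher and 6.68% called lower. Of 9 tested FXR targets, 3 were called lower in siDGk cells (2 to 3 with a library left out) and the list's median log2 fold change was −0.36. In all, 3 of the 9 had positive and 6 had negative values. That median is the value of NR0B2, itself a nuclear receptor gene, which is on this list too. CYP8B1, not called at −3.53, passed the filter only through siCON libraries, so the count and median describe the list. The list also mixes genes that FXR induces with genes that it represses, CYP8B1 and CYP7A1 among the latter, so a fall has no single reading. SLC51A, a subunit of the basolateral bile acid exporter, fell from 17.9 ± 6.42 to 6.80 ± 2.56 CPM (SD, n = 3). The gene of its other subunit, SLC51B, went the other way, from 5.71 ± 2.57 to 8.43 ± 1.29 CPM. Its log2 fold change of 0.54 was not called, and the libraries overlapped. BAAT, which conjugates bile acids to amino acids, fell from 41.9 ± 5.92 to 24.2 ± 2.36 CPM, a log2 fold change of −0.79. KNG1, the kininogen gene, had a log2 fold change of −1.91 and was not called without any 1 of the siCON libraries or without siDGk replicate 1, where it lay between −2.01 and −1.78. It was −2.90 without siDGk replicate 3 and −1.44 without siDGk replicate 2, called in both. With DESeq2's shrinkage it was −1.04, also called. The bile acid synthesis gene CYP7A1, the exporter ABCB11 and FGF19 had too few counts to be tested, which leaves several textbook FXR targets unread in this line. Of 9 tested PXR and CAR targets, CYP3A5 was called higher and SULT2A1 and CES2 lower, with a median of −0.04. CYP3A7, not called at −2.93, likewise passed the filter only through siCON libraries. CYP3A5, a cytochrome P450 of drug metabolism, went from 8.49 ± 3.60 to 16.0 ± 3.44 CPM. The libraries overlapped, and the call was lost in DESeq2 (0.90; 0.50 shrunken), without siCON replicate 2 (0.79) or 3 (0.70) and without siDGk replicate 1 (0.79) or 3 (0.82). SULT2A1, a hydroxysteroid sulfotransferase, fell from 151 ± 3.92 to 48.6 ± 3.61 CPM. CES2, a carboxylesterase that activates prodrugs, fell from 116 ± 10.4 to 78.1 ± 7.57 CPM.

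PPARA was not called, yet 12 of its 21 tested targets were called lower (9 to 13 with a library left out) and 1 higher, beside 6.68% and 7.42% of all genes, with a median log2 fold change of −0.66. The hepatocyte markers fell too, with 8 of 12 tested called lower and a median of −0.93. Their part in the PPARA, LXR and FXR target results was not tested. FABP1, the liver fatty acid binding protein gene, fell from 765 ± 71.8 to 251 ± 17.4 CPM (SD, n = 3), a log2 fold change of −1.61. EHHADH, of peroxisomal beta-oxidation, had a log2 fold change of −1.45. SLC25A20, the mitochondrial carnitine-acylcarnitine carrier gene, had one of −1.43. CPT1A, which controls entry of fatty acids into mitochondria, fell from 129 ± 3.62 to 49.2 ± 9.21 CPM. These 4 genes serve the binding, transport and oxidation of fatty acids. ACSL1, an acyl-CoA synthetase gene, was the target called higher, from 44.1 ± 9.57 to 68.1 ± 5.20 CPM, and it was named after its value was seen. That call was lost without siCON replicate 2 (0.46), the lowest siCON library, and fell just short of the size with DESeq2's shrinkage (0.498). Among 11 tested LXR targets 6 were called lower (4 to 5 with a library left out), with a median of −0.52, while both LXR genes were near 0. PLTP, the phospholipid transfer protein gene, fell from 39.1 ± 2.65 to 19.5 ± 3.16 CPM. ABCA1, the cholesterol efflux transporter gene, had a log2 fold change of −0.58 and APOE one of −0.57. SCD, the stearoyl-CoA desaturase gene, had one of −0.52, and −0.48 without siDGk replicate 2, under the size needed for a call.

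HNF4A was the most abundant called-lower receptor per kilobase. It encodes HNF4 alpha, which binds promoters of apolipoprotein, clotting factor and transporter genes, and lies at chr20:44355699-44432845. It measured 260.3, 231 and 246 CPM across the siCON cultures and 177, 179 and 162 CPM across the siDGk cultures. The spread within each group was narrow and the groups did not overlap. On the log2 scale the change was −0.51 with a standard error of 0.08 (edgeR's test, adjusted p = 2.07e-04), which places it at the edge of the size needed for a call. It was −0.46 without siCON replicate 1, −0.47 without siDGk replicate 3 and −0.49 with DESeq2's shrinkage, each too small for a call although the adjusted p stayed under 0.05. Its paralog HNF4G was 14.6, 12.8 and 17.3 CPM across the siCON cultures and 11.5, 12.7 and 5.57 CPM across the siDGk cultures. These libraries did not overlap either, but siCON replicate 2 and siDGk replicate 2 nearly met, and with a log2 fold change of −0.59 and a standard error of 0.30 the gene was not called (edgeR's test, adjusted p = 0.192). Leaving out siDGk replicate 2 made it −0.80, and leaving out siDGk replicate 3 made it −0.30.

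NR2F2 encodes COUP-TFII, an orphan receptor that can compete with other receptors for shared sites, and lies at chr15:96325938-96340263. It was present at 28.4, 25.7 and 21.1 CPM across the siCON cultures and 12.8, 14.3 and 11.4 CPM across the siDGk cultures. All siDGk values were below all siCON values. The estimate was a log2 fold change of −0.97 with a standard error of 0.21 (edgeR's test, adjusted p = 0.00218), and it lay between −1.08 and −0.87 in the fits without 1 library, called in all 6. Its close relatives were not called. NR2F1 (COUP-TFI) had a log2 fold change of −0.10, and NR2F6 (EAR-2), the most abundant of the 3, −0.35. Without siDGk replicate 1, in which NR2F6 was at its highest siDGk level of 144 CPM, it was −0.58 and called, and without siDGk replicate 2 it was −0.22. Per kilobase the ratio of HNF4A to NR2F2 was 6.33 ± 0.954 in siCON and 8.61 ± 0.585 in siDGk libraries, whereas that of HNF4A to the 3 NR2F genes together was 0.346 ± 0.0176 and 0.313 ± 0.0686. The latter values overlap between groups.

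NR6A1, the germ cell nuclear factor gene, was 35.3, 25.4 and 27.1 CPM across the siCON cultures and 21.2, 21.9 and 21.35 CPM across the siDGk cultures. The siDGk values were low and nearly equal and did not overlap the siCON values. With a log2 fold change of −0.45 the gene was not called (edgeR's test, adjusted p = 0.0982), and without siCON replicate 1, its highest library, the value was −0.29. NR5A2 encodes LRH-1, a regulator of bile acid synthesis genes, and had 14, 0 and 4 counts across the siCON cultures and 29, 34 and 49 across the siDGk cultures. It was higher in each siDGk library, at a depth where the log2 fold change of 2.37 had a standard error of 1.26 and did not pass (edgeR's test, adjusted p = 0.222). With a library left out the value lay between 1.77 and 3.46, and with DESeq2's shrinkage it was 0.43. The testicular receptors NR2C1 and NR2C2 had log2 fold changes of −0.05 and −0.01, with overlapping libraries.

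Of 20 tested HNF4A targets, 11 were called lower in siDGk cells (11 to 12 with a library left out), beside 6.68% of all genes, with a median log2 fold change of −0.88. APOC3, an apolipoprotein gene, fell from 88.4 ± 6.37 to 19.3 ± 1.96 CPM (SD, n = 3), a log2 fold change of −2.19. MTTP, needed to load lipid onto apolipoprotein B, fell from 193 ± 21.2 to 59.2 ± 10.9 CPM. APOB itself had a log2 fold change of −1.46, and TTR, the thyroid hormone carrier gene transthyretin, −1.61. These falls were larger on the log2 scale than that of HNF4A. Not all targets moved, since SERPINA1 (0.02) and CYP27A1 (0.08) were near 0. The hepatocyte markers, which share 5 genes with the HNF4A list, moved with it. Of 12 tested, 8 were called lower (7 to 9 with a library left out), and their median was −0.93. Summed over the 12, the level was 55055, 52525 and 50154 CPM across the siCON cultures and 31862, 27662 and 25894 CPM across the siDGk cultures. ALB, the most abundant, fell from 16113 ± 2372 to 5401 ± 1038 CPM. AFP fell from 3604 ± 249 to 1355 ± 238 CPM and FGB, a fibrinogen chain gene, from 1287 ± 108 to 345 ± 64.7 CPM. The part of this common fall in the receptor and target results was not tested.

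Among receptors for vitamins and thyroid hormone, THRB was called. It encodes thyroid hormone receptor beta, the main form in liver, at chr3:24117153-24495756. Its transcript stood at 15.5, 11.9 and 14.1 CPM across the siCON cultures and 7.94, 7.51 and 6.58 CPM across the siDGk cultures. The siDGk values were close together and below all siCON values. The log2 fold change was −0.91 with a standard error of 0.26 (edgeR's test, adjusted p = 0.0181). With DESeq2's shrinkage it was −0.60, still called. The direction held with each library left out, but the call needed siCON replicate 1 (−0.82 without it), siCON replicate 3 (−0.90) and siDGk replicate 3 (−0.85). THRA, for the alpha form, had a log2 fold change of −0.02. Of 5 tested targets of the thyroid hormone and vitamin D receptors, DIO1 was called lower and CYP24A1 and KLF9 higher, beside 6.68% and 7.42% of all genes. DIO1, the deiodinase gene that thyroid hormone induces in liver, fell from 11.9 ± 1.47 to 4.58 ± 1.98 CPM (SD, n = 3), and was not called without siCON replicate 1 (−1.29). KLF9, also induced by thyroid hormone and by glucocorticoids, rose from 32.9 ± 7.30 to 62.1 ± 9.28 CPM. CYP24A1, the vitamin D hydroxylase gene that VDR induces, rose from 30.0 ± 8.42 to 58.8 ± 14.6 CPM. Across the siDGk cultures it was 55.3, 46.3 and 74.9 CPM, highest in replicate 3 and lowest in replicate 2.

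VDR, the vitamin D receptor gene, was decided by a single library. It had 7, 0 and 6 counts across the siCON cultures and 22, 159 and 0 counts across the siDGk cultures. Replicate 2 held most of its siDGk counts and replicate 3 none, so the groups overlapped. Here edgeR estimated a log2 fold change of 3.58 with a standard error of 1.44, and the gene did not pass (quasi-likelihood test, adjusted p = 0.0954). It was 0.93 without siDGk replicate 2, and it was called without siDGk replicate 3 (4.16) and with no filter on low counts (3.57). The replicate block gave 1.80 and DESeq2's shrinkage 0.15, neither called. The endothelial markers VWF, PECAM1 and CDH5 were also highest in siDGk replicate 2. Summed over 9 stromal and endothelial genes the level was 45.8, 43.0 and 38.8 CPM across the siCON cultures and 73.0, 131 and 52.0 CPM across the siDGk cultures. The most abundant was ACTA2, with 28.3 ± 3.27 CPM in siCON and 24.99 ± 3.28 CPM in siDGk libraries, and it was lowest in siDGk replicate 2. Of 7 tested, COL1A1 was called higher, from 1.17 ± 0.752 to 19.4 ± 1.75 CPM, and PDGFRB lower, from 11.0 ± 1.88 to 5.49 ± 1.53 CPM, beside 7.42% and 6.68% of all genes. The PDGFRB call held in 1 of 6 fits without a library, with values from −1.16 to −0.81. Their part in the VDR counts was not tested.

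The retinoic acid receptors were not called. RARA and RARG had log2 fold changes of 0.07 and −0.23, with overlapping libraries. RXRA encodes retinoid X receptor alpha, the common partner of FXR, PXR, LXR, PPAR and retinoic acid receptors, at chr9:134317098-134440585. Its level was 87.6, 83.5 and 75.8 CPM across the siCON cultures and 58.9, 68.3 and 61.8 CPM across the siDGk cultures. All siDGk values lay below all siCON values, by less than the size needed for a call, since the log2 fold change was −0.39 (edgeR's test, adjusted p = 0.0211). RXRB had a log2 fold change of −0.31, or −0.15 without siCON replicate 1, and overlapping libraries. The sum of both partners was 23.0 ± 3.28 CPM per kilobase in siCON and 18.4 ± 2.36 in siDGk libraries (SD, n = 3), overlapping between groups. Of 11 tested genes of retinoid transport, metabolism and response, 2 were called higher and 3 lower, beside 7.42% and 6.68% of all genes. CRABP2, which carries retinoic acid to its receptor, had a log2 fold change of 2.64, and RDH10, which oxidizes retinol, 1.37. RBP4, the secreted retinol carrier of hepatocytes, fell from 368 ± 3.26 to 167 ± 11.4 CPM. ALDH1A1 and RARRES2 were the other 2 called lower.

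The clock receptors gave 0 calls in edgeR's test, beside 14.1% of all genes called, and 0 in DESeq2. At an unadjusted p under 0.05 there were 2 of 3, a count with no share of all genes to set beside it. NR1D1 and NR1D2 encode the heme-binding repressors REV-ERB alpha and beta, and RORA encodes the activator that competes with them. NR1D2 was 23.7, 14.6 and 21.9 CPM across the siCON cultures and 16.4, 13.4 and 9.06 CPM across the siDGk cultures. The lowest siCON value lay below the highest siDGk value, and the log2 fold change of −0.63 did not pass (edgeR's test, adjusted p = 0.0983). It was −0.82 and called without siCON replicate 2, the lowest siCON library. RORA had a log2 fold change of 0.43, and 0.22 without siDGk replicate 1, where it was highest. NR1D1 had one of 0.21, which ran from 0.05 to 0.51 with a library left out. Of 14 tested clock genes, 0 were called in edgeR's test, again beside 14.1% of all genes called, and 0 in DESeq2. By the unadjusted p 2 were below 0.05, again with no share of all genes to set beside them. The list's median was −0.29, and HLF, an output gene of the clock, passed the adjusted p alone, as 19.7% of all genes did, with −0.33; it was named after its value was seen.

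Of the steroid and estrogen-related receptors, ESRRA and NR3C1 were tested. ESRRA encodes ERR alpha, an orphan receptor that with PGC-1 coactivators drives genes of mitochondrial energy metabolism, at chr11:64305497-64316743. The level was 83.6, 69.6 and 88.4 CPM across the siCON cultures and 120.4, 113 and 128 CPM across the siDGk cultures. Every siDGk value was well above every siCON value. This gave a log2 fold change of 0.59 with a standard error of 0.11 (edgeR's test, adjusted p = 7.11e-04). Without siCON replicate 2, the lowest siCON library, it was 0.49, just under the size needed for a call. Its coactivator gene PPARGC1A had a log2 fold change of −0.40 with overlapping libraries. PPARGC1B, also a PGC-1 gene, had too few counts to be tested. These were 30, 10 and 23 across the siCON cultures and 2, 0 and 0 across the siDGk cultures. NR3C1, the glucocorticoid receptor gene, was between 38.6 and 46.2 CPM in all 6 libraries, a log2 fold change of −0.01 with a standard error of 0.14. Of its 10 tested targets, 3 were called higher and 1 lower, beside 7.42% and 6.68% of all genes. DUSP1, a phosphatase gene that glucocorticoids and stress induce, rose from 109 ± 21.32 to 195 ± 10.2 CPM (SD, n = 3). ERRFI1, an inhibitor of EGF receptor signaling, rose from 431 ± 37.9 to 630.5 ± 43.8 CPM, and without siCON replicate 1 (0.48) or siDGk replicate 1 (0.48) it was under the size for a call. KLF9 is on this list too. SGK1, a kinase gene, fell from 27.1 ± 1.94 to 10.2 ± 6.60 CPM, with siDGk replicate 3 the lowest. That call was lost with a mean above 10 CPM required (−1.43) and without any siCON library or siDGk replicate 2, where the value lay between −1.46 and −1.36. It was −2.001 without siDGk replicate 1 and −1.004 without siDGk replicate 3, called in both.

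NR4A2 had the largest rise among the called receptors. The NR4A genes encode NUR77 (NR4A1), NURR1 (NR4A2) and NOR1 (NR4A3), orphan receptors induced as immediate-early genes. NR4A2, at chr2:156324437-156342348, had 10, 5 and 5 counts across the siCON cultures and 53, 101 and 85 counts across the siDGk cultures. All siDGk libraries were far above all siCON libraries, from a base near the detection limit. The mean rose from 0.426 ± 0.141 to 4.33 ± 1.72 CPM (SD, n = 3). On the log2 scale the change was 3.33 with a standard error of 0.75, and 2.98 to 3.56 with a library left out. Since the gene passed the filter through siDGk libraries alone, that call is a description. With no filter on low counts, where no group decides entry, it was 3.34 and also called, and where a mean above 10 CPM was required it was not tested. NR4A1, at a far higher level per kilobase in siCON cells, had a log2 fold change of 0.16 and overlapping libraries, and 0.05 without siDGk replicate 1. NR4A3 had 5 to 32 counts a library and a log2 fold change of −0.60 with a standard error of 1.22 (−1.67 to −0.24 with a library left out), too imprecise to read a direction.

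NR0B2 encodes SHP, a receptor without a DNA-binding domain that represses other receptors and is itself a target of FXR. It measured 96.3, 117 and 95.2 CPM across the siCON cultures and 76.7, 80.3 and 84.1 CPM across the siDGk cultures. The groups did not overlap, with siDGk values lower. The estimate was a log2 fold change of −0.36 with a standard error of 0.11, which passed the adjusted p alone but not the size for a call (edgeR's test, adjusted p = 0.0269). The difference was smaller than that of its regulator NR1H4.

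Receptors recruit cofactors, of which 2 lists were read beside the 14.1% of all genes called. Of 12 tested coactivator genes 1 was called, NCOA3, which encodes a steroid receptor coactivator. It fell from 50.7 ± 13.7 to 32.6 ± 6.34 CPM (SD, n = 3) with overlapping libraries, and the call was lost with DESeq2's shrinkage (−0.47) and without siCON replicate 1 (−0.40) or 3 (−0.67) or siDGk replicate 2 (−0.55) or 3 (−0.57). Of 10 tested corepressor genes 1 was called, TBL1XR1, a subunit of the NCoR complex. It rose from 35.3 ± 5.45 to 51.2 ± 4.64 CPM, and the call was lost with DESeq2's shrinkage (0.41) and without siCON replicate 2 (0.44) or 3 (0.51) or siDGk replicate 1 (0.45). The scaffold gene NCOR1 had a log2 fold change of 0.08 and was not called. At the adjusted p alone 4 of 12 coactivators and 1 of 10 corepressors passed, beside 19.7% of all genes. The medians were −0.09 for coactivators and 0.07 for corepressors.

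**Figure D4:**
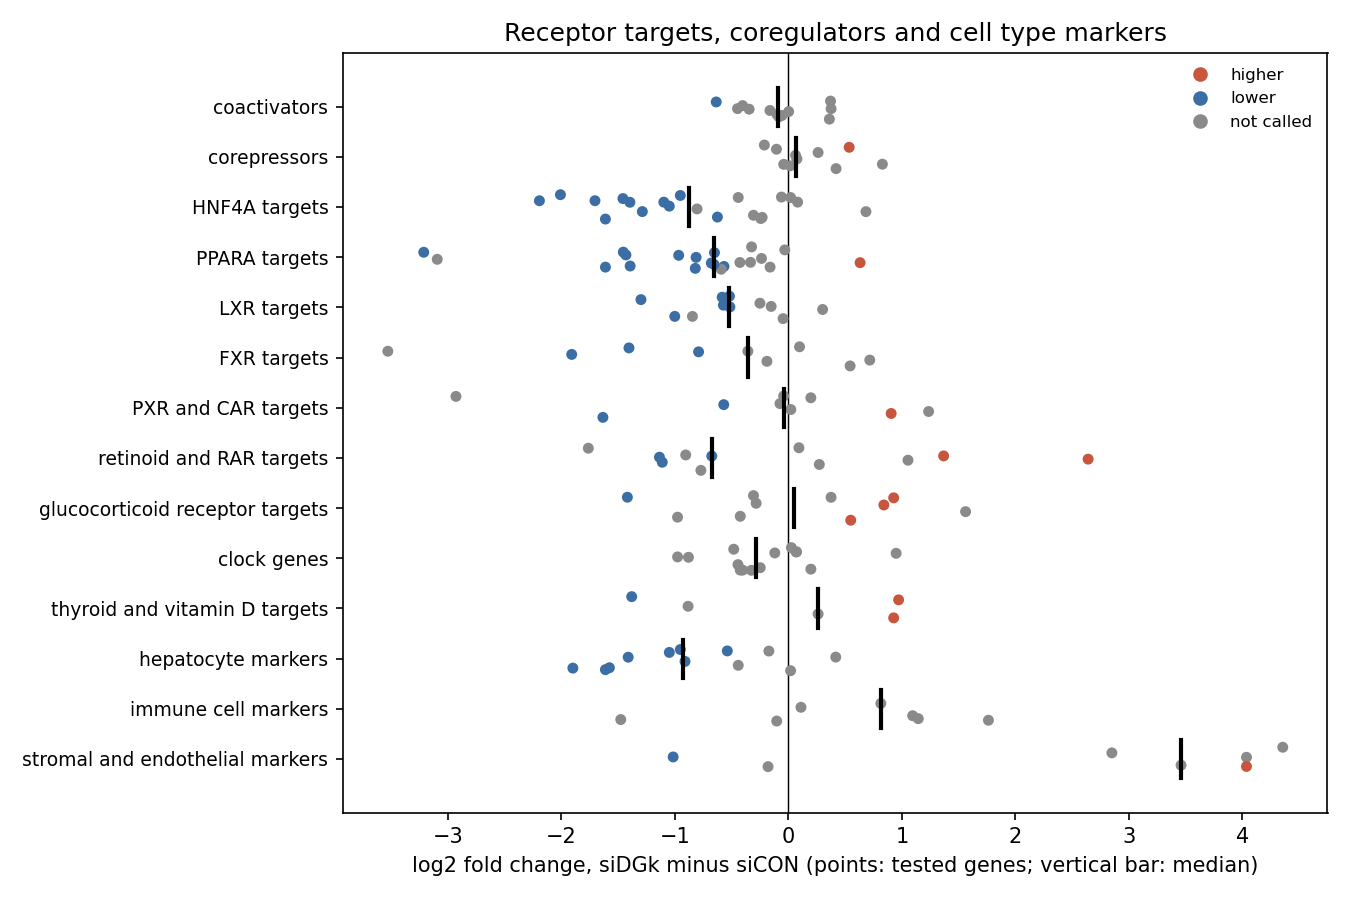
Log2 fold change (horizontal axis, siDGk minus siCON) of each tested gene in lists of coregulators, receptor targets, clock genes and cell type markers, with red and blue points for genes called higher and lower and a black bar at each list's median. The medians of the HNF4A, PPARA and LXR targets lie at −0.88, −0.66 and −0.52, and that of the stromal and endothelial markers rests on genes with few counts.

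Several receptor genes share exon sequence with neighbouring genes, and the counting ignored strand and left out reads that overlap several genes, so their levels are uncertain. The shares below come from a later Gencode release than the one the study reports for its counts. Genes added since would not have removed reads, so the shares only approximate what the counting left out. NR2C2 shared 61.9% of its exon bases with other genes, NR1H2 22.1%, RARA 21.4% and NR1D1 18%, the last with THRA. Among the called receptors ESRRA shared 9.16% with TRMT112 and NR1I2 4.07%, while NR1H4, PPARD and NR4A2 shared 0% and HNF4A, NR2F2 and THRB under 1%.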

How the data were processed

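Groups came from sample titles and library names, because the treatment label names the control siRNA in all 6 samples. By their processing notes, the authors aligned reads to GRCh38 with STAR 2.6.1 and made the deposited counts, which are not normalized, with featureCounts 1.6.5.

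In R 4.3.3, genes were filtered with filterByExpr (minimum count 10), normalized by TMM and tested with edgeR 4.0.16 (glmQLFit with robust estimation, glmQLFTest, two-sided, condition alone), with Benjamini-Hochberg adjustment over all genes tested. CPM used TMM-scaled library sizes, and levels per kilobase used Gencode union exon lengths, from a later release than the one the study reports. The fit was tested on simulated counts.

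Receptors and gene lists were chosen with earlier results of these data known, and some genes of the lists were not used here. Named genes are DGUOK, the receptors, called genes of each list (the 4 largest changes at a mean of at least 10 CPM where more than 4 were called), the most abundant marker of each list, and receptors beside their targets; further genes were picked with their values known. The alternatives run were RLE and upper-quartile normalization, no filter, a mean above 10 CPM, DESeq2 1.42.0 with and without ashr 2.2.63 shrinkage, the adjusted p alone, a replicate block, each library left out and, added after seeing the data, library sizes recomputed from the filtered genes.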

Additional observations from a re-analysis of the deposited data

How the results depend on the processing

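The calls of receptors rest on 3 libraries a group and on a size threshold that several of them barely pass. The count of receptors called higher was 4 as reported, 5 with no filter on low counts, 3 to 4 with a library left out, 3 with a mean above 10 CPM and 3 with DESeq2's shrinkage, which also gave 3 lower. The count called lower was 2 to 5 with a library left out, 2 without siCON replicate 1 or siDGk replicate 3, and 6 at the adjusted p alone. Calls over all genes were 1704 to 1935 with a library left out. The receptor median lay between −0.09 and −0.04, and DGUOK between −2.72 and −2.42. NR1H4, NR1I2 and NR2F2 were called in every alternative run. NR4A2 was called in every one that tested it, but it passed the main filter only through siDGk libraries, so this is a description. Normalization (RLE, upper quartile, library sizes recomputed from the filtered genes, chosen after seeing the data) kept the same 8 calls.

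Replicate numbers did not pair the libraries: the correlation of same-numbered deviations was 0.0240, 0.0166 and −0.00224. With the replicate block the calls over all genes were 2077, the receptors called higher 4 and lower 4, and the same 8 receptors were called; it gave 2 immune markers and 3 stromal and endothelial markers called higher, against 0 and 1.

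Changes of sign occurred only with a library left out, for receptors whose log2 fold change was smaller in size than its standard error. The ranges were −0.225 to 0.0790 for NR1H3, −0.123 to 0.00407 for NR2C1, −0.138 to 0.131 for NR2C2, −0.235 to 0.0894 for NR2F1, −0.0633 to 0.0716 for NR3C1, −0.0332 to 0.125 for PPARG, −0.0775 to 0.264 for RARA, −0.479 to 0.138 for RARG and −0.188 to 0.127 for THRA. Small list counts moved too. At the adjusted p alone, 2 coactivators were higher and 2 lower, and 1 clock gene was lower. DESeq2 called 2 coactivators lower, 0 PXR and CAR targets higher and 2 stromal and endothelial markers higher. With shrinkage, 0 corepressors, 0 PPARA targets, 0 PXR and CAR targets and 2 stromal and endothelial markers were higher. A mean above 10 CPM, which tests fewer genes, left 0 glucocorticoid receptor targets, 0 thyroid and vitamin D targets and 0 stromal and endothelial markers lower. Without a filter 1 immune marker and 4 stromal and endothelial markers were higher. Ranges with a library left out were 0 to 2 coactivators called lower, 0 to 1 corepressors called higher, 0 to 1 PPARA targets called higher, 0 to 1 PXR and CAR targets called higher, 0 to 1 glucocorticoid receptor targets called lower, 0 to 1 thyroid and vitamin D targets called lower, 0 to 1 hepatocyte markers called higher, 0 to 2 immune cell markers called higher, 1 to 3 stromal and endothelial markers called higher and 0 to 1 stromal and endothelial markers called lower. The cause was not tested.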

Other observations

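Apart from LYZ, the transcripts of the immune, stromal and endothelial lists reached at most 32.0 CPM in any library. Of 7 tested immune markers 0 were called in edgeR's test, beside 14.1% of all genes called, and 0 in DESeq2. At an unadjusted p under 0.05 there was 1, a count with no share of all genes to set beside it. The sum of the immune markers was 1616, 1709.9 and 1710.4 CPM across the siCON cultures and 1913, 1768 and 1777 CPM across the siDGk cultures. LYZ, the lysozyme gene, made up nearly all of it, with 1668 ± 51.0 CPM in siCON and 1802 ± 82.1 CPM in siDGk libraries (SD, n = 3). PTPRC, the pan-leukocyte marker, was 0.481, 2.93 and 0.191 CPM across the siCON and 2.00, 7.94 and 2.67 CPM across the siDGk cultures. CD3D, of the T cell receptor complex, was 1.496, 6.87 and 4.58 CPM across the siCON and 10.8, 9.66 and 8.19 CPM across the siDGk cultures.

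VWF, of endothelial cells, was 0.427, 1.39 and 0 CPM across the siCON and 1.40, 31.4 and 0 CPM across the siDGk cultures, and PECAM1 was 1.23, 0 and 0.477 CPM across the siCON and 0.540, 15.9 and 2.81 CPM across the siDGk cultures. COL3A1, a fibrillar collagen gene of stromal cells, was 0, 0.0533 and 0 CPM across the siCON and 7.997, 15.6 and 0.414 CPM across the siDGk cultures. For VWF and PECAM1 the highest value was in siDGk replicate 2, the library that also held most VDR counts. COL1A1 differed from these, with like values of 20.2, 20.7 and 17.4 CPM in all 3 siDGk libraries.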
